A study of Homo sapiens with 4 samples.

Results

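The angiomotins and the Ajuba LIM proteins are 6 genes at the upper end of the Hippo pathway: AMOT, AMOTL1 and AMOTL2 in the first family, and AJUBA, LIMD1 and WTIP in the second. The members were taken by gene symbol from a table of 48162 genes, and all 6 were listed. They were chosen with earlier results of these data known. The table came from MDA-MB-231, an established line of human triple-negative breast cancer cells, which here stands for a single tumour genotype. Cells were given vehicle or MGH-CP1, an inhibitor that blocks the palmitoylation of the TEAD transcription factors, and their poly(A)-selected RNA was sequenced at 24 h. The sample labels give the dose as 10 µM, whereas the methods give 10 with the unit mM. There were 2 libraries per group, and no source says that they came from separate cultures, so the p-values measure only the spread between these libraries, which may be technical.

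Angiomotins are scaffold proteins of cell junctions and actin filaments. They bind YAP and TAZ directly, hold them away from the nucleus, and help the LATS kinases to phosphorylate them. Ajuba LIM proteins act in the opposite sense: at junctions under tension they bind LATS and restrain it, which leaves YAP and TAZ more active. YAP and TAZ carry no DNA-binding domain of their own and reach their target genes through TEAD, and AMOTL2 and AJUBA have themselves been described as YAP/TAZ target genes.

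Of the 6 members, AMOTL1, AMOTL2, AJUBA and WTIP were lower after MGH-CP1. The steepest fall was that of AMOTL2, to 23.3 from 38.5 FPKM. LIMD1 did not pass the test, and AMOT was near 0 in every library. FPKM counts the fragments of a gene relative to its length and to the depth of the library. Levels can thus be compared between genes, but only roughly, as a single fixed length serves for all forms of a gene. A gene was tested where its mean was at least 1 FPKM, and called where limma, run on log2(FPKM + 1) of 12080 genes, gave a Benjamini-Hochberg adjusted p under 0.05. Over all these genes 23.8% were called lower and 27.1% higher, against 4 lower and 0 higher of the 5 members tested. The median log2 fold change was -0.34 for the 5 members and 0.01 for all genes tested. Among all genes called lower the median was -0.36, which AMOTL2 and AJUBA exceeded and AMOTL1 and WTIP did not.

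**Figure D1:**
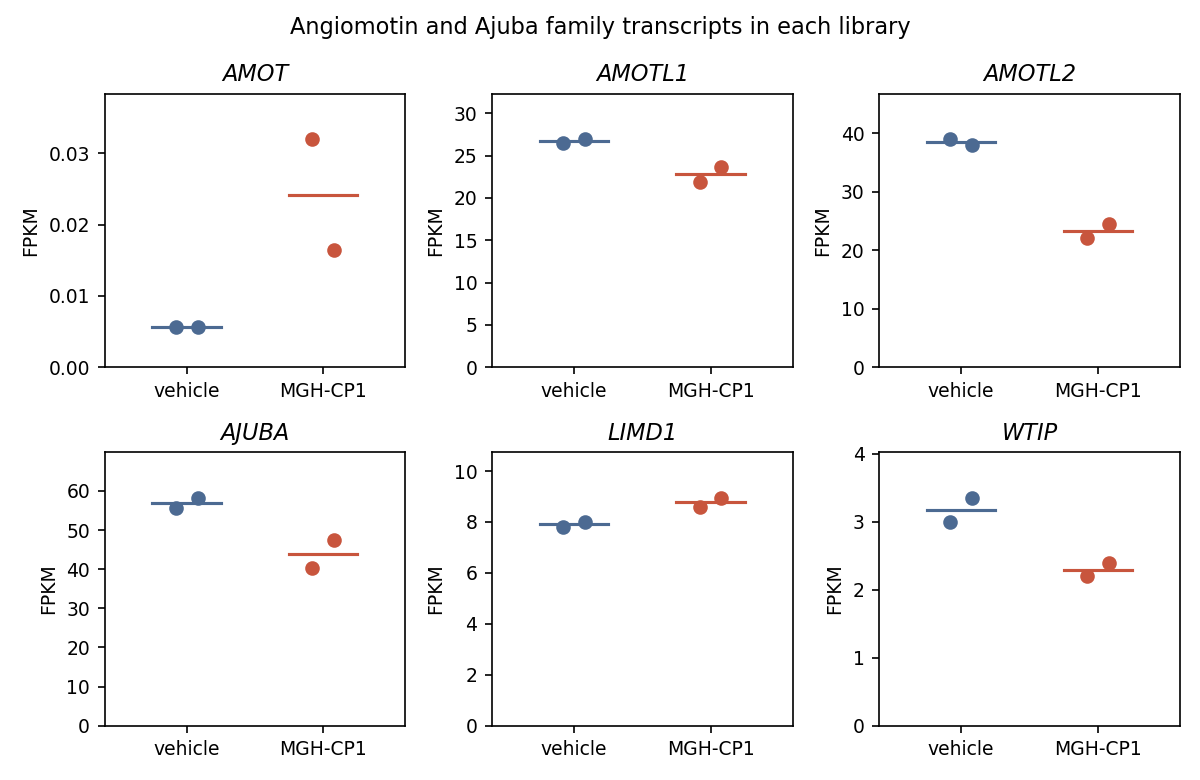
Level of each member (FPKM, linear axis from 0, with its own scale in each panel) in the 2 vehicle and 2 MGH-CP1 libraries; points are libraries and bars are group means. For AMOTL1, AMOTL2, AJUBA and WTIP both MGH-CP1 points lie under both vehicle points, and the AMOT axis ends below 0.04 FPKM.

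The libraries held 17577930 to 25508824 fragments on genes, with the vehicle libraries the deeper ones. Mitochondrial transcripts took 0.418 to 0.447% of the fragments with vehicle and 1.53 to 1.57% with MGH-CP1; what part this had in the members' values was not tested. All 6 markers of the line that were looked for (VIM, CD44, AXL, KRT18, CAV1, LGALS1) were expressed, with a summed level of 2043 to 2161 FPKM. The sum hides opposite differences: LGALS1 was higher in both treated libraries (1127 and 1124 against 783 and 857 FPKM), whereas AXL, CAV1 and KRT18 were lower in both. By smaller margins, CD44 was also higher in both (221 and 217 against 205 and 198 FPKM). VIM was lower in both (259 and 262 against 281 and 267 FPKM). ESR1, PGR and CDH1 stayed below 1 FPKM in every library, whereas ERBB2, EPCAM and GATA3 did not. Of 5 markers of other cell types, 4 were below 1 FPKM throughout; the exception was the hepatocyte gene ALB, at 2.56 FPKM in MGH-CP1 replicate 2. In bulk RNA, fewer cells with a transcript and less of it per cell cannot be told apart.

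The sequence just before the start sites of some members is shown, with a TEAD motif marked. Whether this motif had a part in the fall of any member was not tested. RefSeq promoters (build GRCh38.p14, not the hg19 build of the gene coordinates below) were found for 5 members, in 7 windows of 250 bases that end at a start site. The core TEAD motif, GGAATG on either strand, was present in 11.9% of 35116 such windows. It matched in 1 of 2 windows of AMOTL2, in 1 of 2 of AJUBA and in the window of WTIP, and in none of AMOT or AMOTL1. The 4 windows below, read 5′ to 3′ on the gene's own strand, are those 3 and that of AMOTL1. AMOTL1 also fell and had no match. The other windows of AMOTL2 and AJUBA, likewise without a match, are not printed. Capitals mark the motif, written CATTCC where it lies on the other strand. A further match search, for the AP-1 motif TGANTCA on either strand, found it in 6.57% of all windows and in 0 of the 7. A match is a description of letters and not evidence of binding.
AMOTL2, chr3:134374448-134374697, minus strand: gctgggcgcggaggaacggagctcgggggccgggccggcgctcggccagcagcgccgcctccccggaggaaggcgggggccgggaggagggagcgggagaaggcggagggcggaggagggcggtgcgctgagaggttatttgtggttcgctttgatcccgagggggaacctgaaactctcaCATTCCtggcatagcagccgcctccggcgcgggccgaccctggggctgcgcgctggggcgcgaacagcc
AJUBA, chr14:22976843-22977092, minus strand: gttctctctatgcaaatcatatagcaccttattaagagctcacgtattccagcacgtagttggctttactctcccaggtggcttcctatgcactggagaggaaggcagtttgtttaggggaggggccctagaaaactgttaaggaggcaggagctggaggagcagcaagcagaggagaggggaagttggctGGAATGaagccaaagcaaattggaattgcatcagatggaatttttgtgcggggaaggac
WTIP, chr19:34481508-34481757, plus strand: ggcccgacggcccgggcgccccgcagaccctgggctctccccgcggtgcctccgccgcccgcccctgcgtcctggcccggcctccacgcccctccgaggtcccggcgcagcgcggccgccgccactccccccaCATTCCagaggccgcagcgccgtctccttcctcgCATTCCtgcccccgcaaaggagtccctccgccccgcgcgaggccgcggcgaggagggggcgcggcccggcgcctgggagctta
AMOTL1, chr11:94768106-94768355, plus strand: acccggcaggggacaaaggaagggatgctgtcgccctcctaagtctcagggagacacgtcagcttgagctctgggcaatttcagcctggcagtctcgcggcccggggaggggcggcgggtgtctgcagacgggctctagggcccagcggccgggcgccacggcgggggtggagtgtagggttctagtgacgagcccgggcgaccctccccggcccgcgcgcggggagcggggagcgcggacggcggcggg

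In the printed windows the match began 69 bases before the start site in AMOTL2 and 59 bases before it in AJUBA. Both genes have another start site, whose window held no match. In each, the matched window is the one further downstream. WTIP held 2 matches, beginning 117 and 83 bases before its start. The printed windows differ in composition: the share of G and C was 73.6% in AMOTL2, 49.2% in AJUBA, 80.4% in WTIP and 73.2% in AMOTL1. The median over all promoters searched was 58.0%. In the windows without a match the share was 56.4% for AMOTL2 and 68.4% for AJUBA.

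AMOTL2 (ENSG00000114019, hg19 chr3:134074716-134094321, minus strand) was the main angiomotin transcript with vehicle. It was measured at 39.0 and 37.9 FPKM with vehicle and at 22.1 and 24.5 FPKM with MGH-CP1. Both treated libraries lay well under both controls, and the gap between the groups was wider than the spread inside either. The group means were 38.5 ± 0.732 and 23.3 ± 1.68 FPKM (SD, n = 2), a change of -39.4%. The log2 fold change was -0.70 with a standard error of 0.06 (95% interval -0.84 to -0.56; limma adjusted p 8.95e-05). Of the genes tested, 2.35% fell further. Over 13 other settings the adjusted p ranged from 5.20e-12 to 0.0699, and it was above 0.05 only in a per-gene test that shares no variance. The values rest on 4486 and 4376 fragments with vehicle and on 1801 and 1948 with MGH-CP1. A ribosomal protein pseudogene on the same strand, RPL39P5, overlaps AMOTL2 and had 1 to 6 fragments per library. The counting tool is not stated, so whether fragments shared with RPL39P5 were left out of AMOTL2 cannot be told.

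AMOTL1 (ENSG00000166025, hg19 chr11:94439597-94609918, plus strand), which like AMOTL2 binds YAP and junction proteins, changed less. Its level was 26.4 and 27.0 FPKM with vehicle, and 21.8 and 23.7 FPKM with MGH-CP1. The groups did not overlap, but the gap between the nearest libraries was not much larger than the distance between the treated ones. Mean levels of 26.7 ± 0.356 and 22.8 ± 1.33 FPKM (SD, n = 2) differ by -14.7%. The log2 fold change was -0.22 (SE 0.06, 95% interval -0.36 to -0.08, limma adjusted p 0.0151). This call was lost without MGH-CP1 replicate 1 (log2 fold change -0.16, limma adjusted p 0.102). It was also lost when genes of any level above 0 were tested (limma adjusted p 0.0692). Over 13 other settings the adjusted p ranged from 5.08e-04 to 0.139. The antisense genes RP11-867G2.8 and RP11-856F16.2 overlap AMOTL1 and had 0 fragments in all libraries.

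AMOT (ENSG00000126016, hg19 chrX:112017731-112084043, minus strand), the founding member of the family, was hardly detected. The libraries held 1 and 1 fragments with vehicle and 4 and 2 with MGH-CP1. These are 0.00566, 0.00564, 0.0320 and 0.0164 FPKM. Corrected for depth, the ratio of MGH-CP1 to vehicle was 4.30, with an exact 95% interval of 0.768 to 43.5 that covers counting error only. The interval includes no change, and a difference was not detectable at this depth. AMOT was below the level required for the test. With no such filter its log2 fold change of FPKM + 1 was 0.03 (limma adjusted p 0.573). On that scale a gene so scarce gives a value near 0 whatever its ratio, so this value cannot show whether AMOT changed.

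Among the Ajuba family, AJUBA (ENSG00000129474, hg19 chr14:23440383-23451851, minus strand), which inhibits LATS and also binds Aurora A, was the most abundant of all 6 members. It was measured at 55.5 and 58.3 FPKM with vehicle and at 40.4 and 47.5 FPKM with MGH-CP1. The treated libraries were both lower, yet stood far apart from each other. The means were 56.9 ± 1.96 and 43.9 ± 5.02 FPKM (SD, n = 2), a change of -22.8%. The log2 fold change of AJUBA was -0.37 (SE 0.08, 95% interval -0.54 to -0.19, limma adjusted p 0.00452). It was -0.26 without MGH-CP1 replicate 1 and -0.48 without MGH-CP1 replicate 2, and called in both. Without the filter on low levels the limma adjusted p was 0.0787, in a range of 2.56e-06 to 0.173 over 13 other settings. RP11-298I3.5 overlaps AJUBA on the same strand over 11085 bases and had 0 fragments in all libraries. Whether fragments shared with RP11-298I3.5 were left out of AJUBA cannot be told either.

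WTIP (ENSG00000142279, hg19 chr19:34971874-34997258, plus strand), first described as a partner of the Wilms tumour protein, was the scarcest member that could be tested. Its level was 2.99 and 3.35 FPKM with vehicle, and 2.20 and 2.39 FPKM with MGH-CP1. The groups did not overlap, with a gap between the nearest libraries that was wider than the spread within either group. The means were 3.17 ± 0.254 and 2.30 ± 0.131 FPKM (SD, n = 2), a change of -27.6%, and rested on 306 to 660 fragments per library. The log2 fold change of FPKM + 1, a scale that understates changes of scarce genes, was -0.34 (SE 0.10, 95% interval -0.57 to -0.11, limma adjusted p 0.0228). On recovered fragments with limma voom it was -0.47. The call was lost without MGH-CP1 replicate 1 (-0.30, limma adjusted p 0.0903), without vehicle replicate 2 (-0.28, limma adjusted p 0.140) and with no filter (limma adjusted p 0.102). Its adjusted p ranged from 3.77e-04 to 0.140 over 12 other settings.

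LIMD1 (ENSG00000144791, hg19 chr3:45596886-45727830, plus strand), which binds LATS and also works in microRNA silencing and in the turnover of HIF1A, went the other way. It was measured at 7.81 and 8.01 FPKM with vehicle and at 8.61 and 8.96 FPKM with MGH-CP1. Both treated libraries were above both controls, by a small margin. The means were 7.91 ± 0.140 and 8.78 ± 0.248 FPKM (SD, n = 2), or 11% more. The log2 fold change of 0.13 (SE 0.07, 95% interval -0.02 to 0.29) did not pass the test (limma adjusted p 0.134). With limma voom on recovered fragments it was 0.15 and passed (adjusted p 0.0377), the only one of 13 other settings where it did (adjusted p 0.0377 to 0.355). LIMD1-AS1 overlaps LIMD1 on the opposite strand and had 0 to 3 fragments per library.

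**Figure D2:**
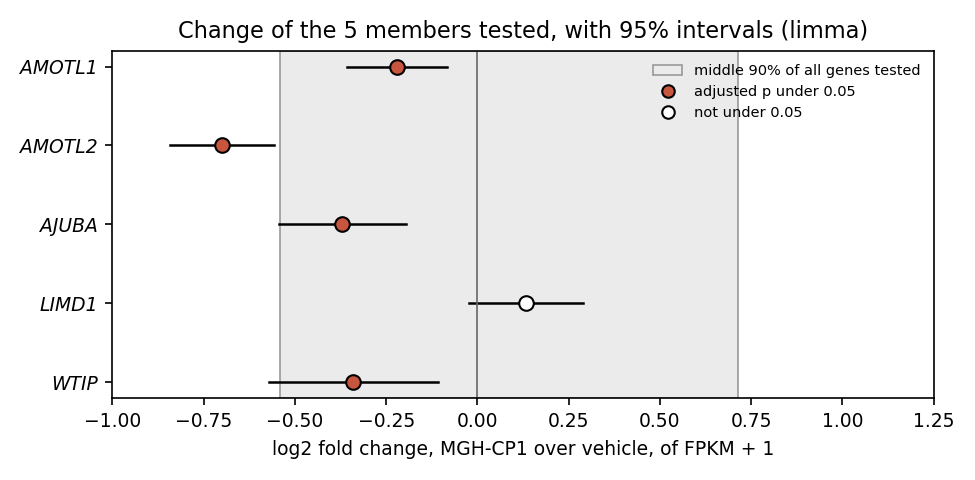
Log2 fold change of FPKM + 1, MGH-CP1 over vehicle, of the 5 members tested; points are limma estimates, lines 95% intervals, filled points have an adjusted p under 0.05, and the grey band holds the middle 90% of all genes tested (-0.54 to 0.71). AMOTL2, at -0.70, is the member whose estimate lies outside the band, and the interval of LIMD1 crosses 0.

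That the libraries of the groups did not overlap was common in these data. Of all genes tested, 37.4% had their 2 treated values under the 2 control values, and 39.8% had them above. Of the 5 members tested, 4 were of the first kind and 1 of the second. With 2 libraries against 2, an exact permutation test of a single gene cannot give a two-sided p below 0.333, so each call above depends on limma's pooling of variance over the genes.

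The treated replicates differed in the same direction for every member tested. AMOTL1, AMOTL2, AJUBA, LIMD1 and WTIP were each higher in MGH-CP1 replicate 2 than in replicate 1, by 0.11, 0.14, 0.23, 0.05 and 0.08 on the log2 scale. Over all genes tested 49.0% were higher in replicate 2, so the libraries as a whole were not shifted. That share pools genes that rose with genes that fell, and the difference was not particular to the members. Of the YAP/TAZ target genes below that were called lower, most were also higher in MGH-CP1 replicate 2 than in replicate 1. Among them were AXL (187 against 149 FPKM), CCN1 (229 against 216) and FJX1 (15.0 against 13.1). IGFBP3, FOXF2 and CCDC80 went the other way. For AJUBA the coefficient of variation between the treated libraries was 11.4%, whereas counting error alone gives 1.68 to 1.8%. AMOTL2 varied by 7.21% between the treated libraries and by 1.90% between the controls.

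AJUBA was followed by AMOTL2, AMOTL1, LIMD1, WTIP and AMOT in order of level (FPKM), with either agent. Neighbours in this order were separated in all libraries, except AMOTL2 and AMOTL1 after MGH-CP1, whose ranges overlapped. AJUBA had a higher mean level than 89.2% of all genes tested, AMOTL2 than 80.8% and AMOTL1 than 75.9%. LIMD1 and WTIP stood lower, above 43.8% and 17.5% of the genes.

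The fall of AMOTL2 changed the make-up of the angiomotins. AMOTL2 made up 59.6 and 58.5% of the summed FPKM of the family with vehicle, and 50.3 and 50.8% with MGH-CP1. The ratio of AMOTL2 to AMOTL1 was 1.47 and 1.41 with vehicle and 1.01 and 1.03 with MGH-CP1. The levels of both genes in FPKM were thus about equal after treatment, and AMOT added next to nothing in either group. The summed level of the family was 65.2 ± 0.376 FPKM with vehicle and 46.1 ± 3.0 FPKM with MGH-CP1 (SD, n = 2), a change of -29.2%.

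The Ajuba family changed in sum by -19.1%, from 68.0 ± 2.35 to 55.0 ± 5.40 FPKM (SD, n = 2). AJUBA remained its main transcript. It held 83.7 and 83.7% of the sum with vehicle and 78.9 and 80.7% with MGH-CP1, while LIMD1 went from 11.8 and 11.5% to 16.8 and 15.2%. The ratio of AJUBA to LIMD1 was 7.11 and 7.28 with vehicle, and 4.69 and 5.30 with MGH-CP1. That of AJUBA to WTIP was 18.5 and 17.4 with vehicle and 18.3 and 19.9 with MGH-CP1, with overlapping groups. AJUBA and WTIP thus kept about the same proportion, and LIMD1 departed from both. Across the families, the ratio of AJUBA to AMOTL2 was higher in both treated libraries, at 1.82 and 1.94 against 1.42 and 1.54. None of these ratios can reach a p below 0.333 in an exact permutation test.

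**Figure D3:**
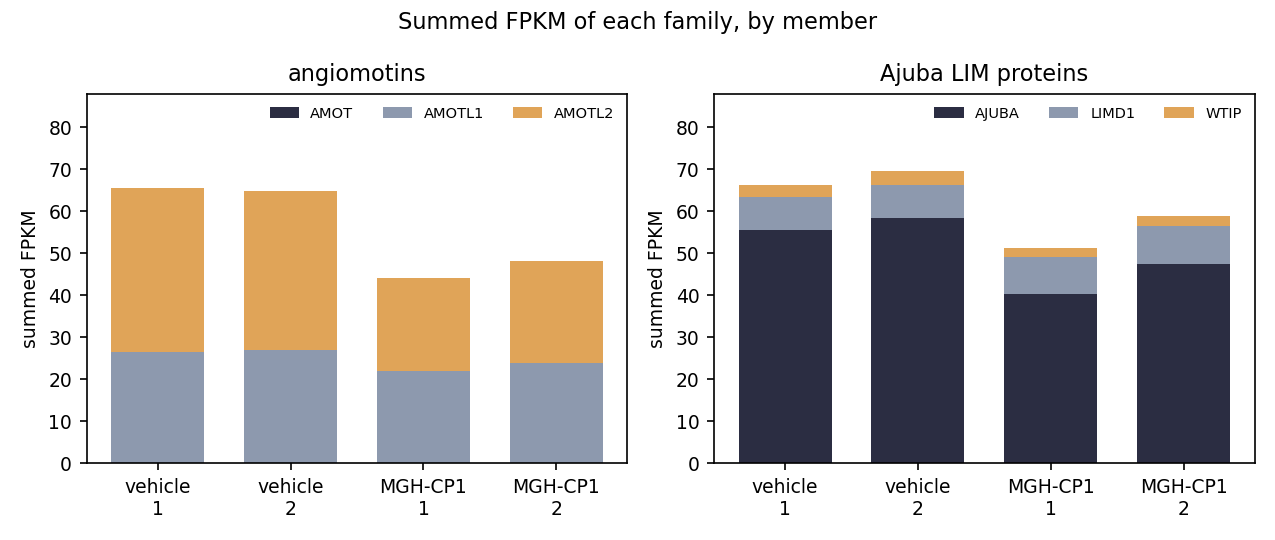
Summed FPKM of the angiomotins (left) and of the Ajuba LIM proteins (right) in each library, stacked by member. The angiomotin bars drop from about 65 to 46 FPKM with most of the loss in AMOTL2, and the AMOT layer is too thin to see.

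Several of the members encode proteins of different lengths. Complete coding transcripts were counted in a GENCODE annotation of build GRCh38, whereas the FPKM values rest on hg19. AMOT has 5, of 597 to 1084 residues. Only the longer form of this protein is known to bind YAP through its amino-terminal part. AMOTL2 has 4, of 777 to 837 residues. AJUBA has 3, of 121 to 538 residues, and WTIP has 1, of 430. The values are per gene and do not tell these forms apart.

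The other genes of the pathway are given by list. Of 18 Hippo kinases and scaffolds, all tested, 11 were called lower (61.1%, beside 23.8% of all genes), 2 higher and 5 were not called, with a median log2 fold change of -0.22. FRMD6, a FERM-domain scaffold of the pathway, went from 49.1 and 47.7 FPKM to 29.7 and 31.4 FPKM (-0.65, limma adjusted p 6.50e-05). WWC1, known as KIBRA, went from 18.8 and 18.1 FPKM to 11.8 and 12.4 FPKM (-0.57, limma adjusted p 1.83e-04). For its relative WWC2 the log2 fold change was -0.48 (limma adjusted p 5.92e-04). These scaffolds, like the angiomotins, help to activate LATS.

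Among YAP, TAZ, the TEADs and the vestigial-like factors, 7 of 10 genes could be tested. Of these, 2 were called lower (28.6%, beside 23.8% of all genes), 1 higher (14.3%, beside 27.1%) and 4 were not called (median 0.02). WWTR1, the gene of TAZ, rose from 29.1 and 29.2 FPKM to 44.6 and 42.9 FPKM (0.57, limma adjusted p 9.08e-05). TEAD4 fell from 20.1 and 17.5 FPKM to 11.8 and 12.5 FPKM (-0.59, limma adjusted p 5.01e-04), and TEAD1 fell less (-0.22, limma adjusted p 0.00763). Of the transcripts of the angiomotins' binding partners, that of TAZ thus rose. That of YAP1, named here after its value was seen, was not called (-0.10, limma adjusted p 0.123). Protein levels were not measured in these libraries.

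Transcripts of proteins that bind angiomotins or govern their turnover showed no single direction. Of 15 tested out of 16, 6 were called lower (40.0%), 3 higher (20.0%) and 6 were not called (median -0.17). Of all genes tested, 23.8% were called lower and 27.1% higher. The ubiquitin ligases NEDD4 and NEDD4L, relatives that act on PPxY proteins such as the angiomotins, were both lower, with log2 fold changes of -0.47 (limma adjusted p 0.00185) and -0.56 (limma adjusted p 4.59e-04). MAGI1, a junction scaffold that binds angiomotins, rose from 14.0 and 13.7 FPKM to 19.8 and 19.4 FPKM (0.48, limma adjusted p 3.36e-04).

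Of 17 zyxin relatives and partners of the Ajuba proteins, 7 were called higher (41.2%), 6 lower (35.3%) and 4 were not called (median 0.07). The shares of all genes tested were 27.1% higher and 23.8% lower. SQSTM1, the autophagy receptor p62, rose from 75.8 and 80.0 FPKM to 142 and 135 FPKM (0.82, limma adjusted p 2.69e-05). AURKA, the mitotic kinase that AJUBA helps to activate, fell from 84.7 and 85.2 FPKM to 48.1 and 51.9 FPKM (-0.75, limma adjusted p 3.73e-05). EGLN2, a prolyl hydroxylase that acts on HIF1A, was scarce and rose from 0.565 and 0.725 FPKM to 1.94 and 1.72 FPKM (0.78, limma adjusted p 0.00143).

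The last list holds 21 YAP/TAZ target genes other than the members, all tested. Of these, 15 were called lower (71.4%, beside 23.8% of all genes), 1 higher and 5 were not called, with a median log2 fold change of -0.40. FJX1 fell from 26.0 and 29.6 FPKM to 13.1 and 15.0 FPKM (-0.93, limma adjusted p 9.45e-05). CCN1, a matricellular protein also known as CYR61, fell from 368 and 383 FPKM to 216 and 229 FPKM (-0.75, limma adjusted p 3.29e-05). AXL, a receptor tyrosine kinase, fell by 0.76 on the log2 scale (limma adjusted p 4.25e-04). AMOTL2, at -0.70, lay among the steeper falls of this list, and AJUBA, at -0.37, near its median. LATS2, PTPN14 and NUAK2 are counted both here and among the Hippo kinases and scaffolds.

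**Figure D4:**
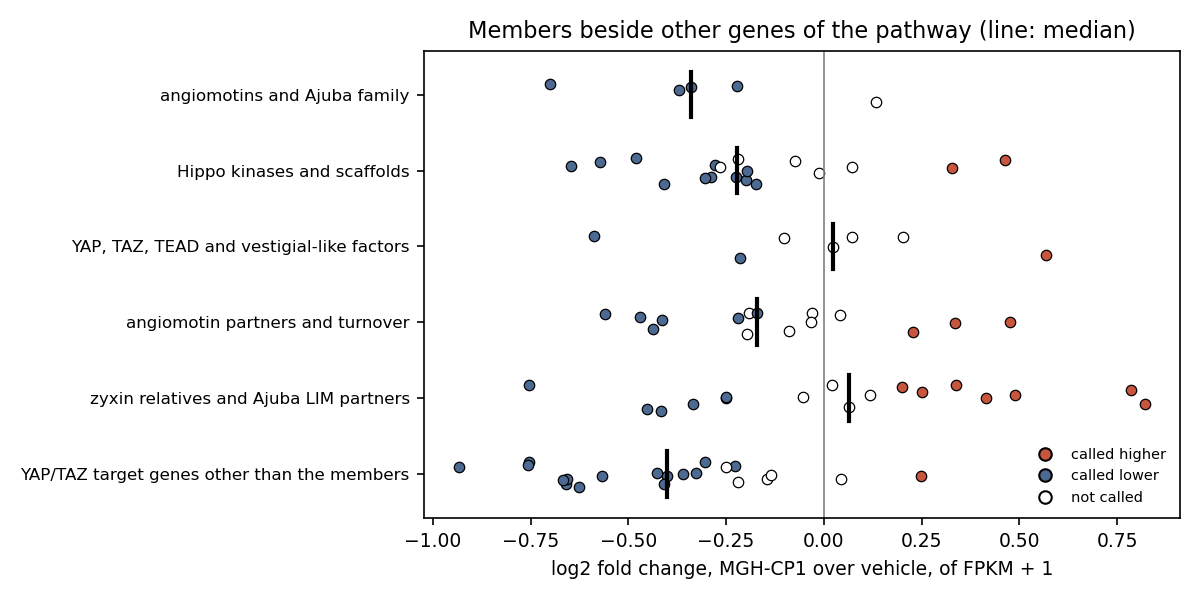
Log2 fold change of FPKM + 1, MGH-CP1 over vehicle, of the members tested (top) and of the 5 pathway lists; each point is a gene, filled by its call in limma, and thick lines are medians. The medians of the members and of the target genes, at -0.34 and -0.40, lie left of that of the zyxin relatives and Ajuba partners, at 0.07.

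Many genes outside the pathway followed profiles like those of the members. Likeness was measured as the Euclidean distance between log2(FPKM + 1) values over the 4 libraries, each gene centred on its own mean, among 8439 genes of at least 5 FPKM. Nearest to AMOTL2 were EBNA1BP2, a nucleolar protein (distance 0.0181), and FANCI, a DNA repair protein (0.0200). Nearest to AJUBA were SLC12A2 (0.0342) and NUP160 (0.0347). AMOTL1 was nearest to GPT2 (0.00982) and DGKZ (0.0124), WTIP to DTNBP1 (0.0130) and RAE1 (0.0134), and LIMD1 to COASY (0.00927) and ATRAID (0.0124). Within a distance of 0.1 there were 83 genes for AJUBA, 131 for AMOTL2, 213 for WTIP, 526 for AMOTL1 and 686 for LIMD1. With 4 libraries such profiles are not distinctive. The limit is the same absolute distance for every member, so these counts depend on the size of each change and on the spread between replicates. LIMD1, whose change was the smallest of the 5, had the most genes within the limit.

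**Figure D5:**
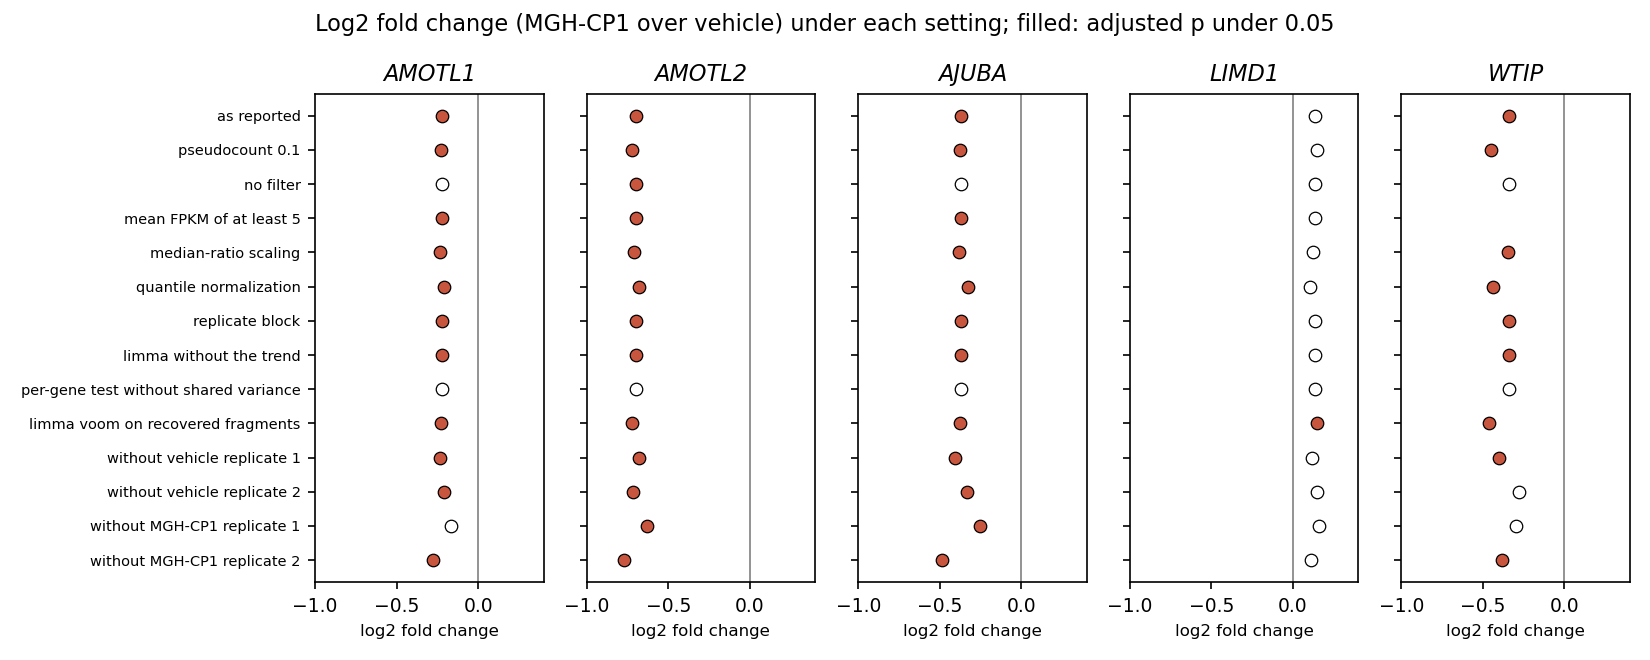
Log2 fold change (MGH-CP1 over vehicle) of each member tested as reported and under 13 other settings; filled points have an adjusted p under 0.05, and voom values are on a scale of fragment counts rather than FPKM + 1. No point crosses 0; AMOTL2 stays between -0.77 and -0.63, and WTIP has no point at a mean of at least 5 FPKM because its level was lower.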

How the data were processed

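The file deposited by the authors lists 48162 genes with symbol, coordinates, length and FPKM per library. The submitters' processing notes name STAR, CASAVA 1.8 and hg19; the counting tool and its strand setting are not given in the sources used here. Each FPKM multiplied by gene length was a whole number of equal steps in its library (100% of values, tolerance 0.001), which gave fragment numbers of 17577930 to 25508824 per library. Columns named for DMSO were matched to the vehicle samples. MGH-CP1 was compared with vehicle in limma 3.58.1 (R 4.3.3; lmFit, eBayes with a trend, two-sided) on log2(FPKM + 1) for genes whose mean reached 1 FPKM, with no term for the replicate number. In simulated data, 196 of 11839 genes tested carried a change and all genes had the same dispersion. There 77.6% of changes of 0.5 and 99.0% of changes of 1 (log2) were recovered, and 14 of 187 calls were false. In the real data 27.1% of genes were called higher and 23.8% lower, so these rates need not hold for them. The members and lists were chosen with earlier results of these data known. Named genes are the 6 members, the 3 called genes of largest change in each of 5 pathway lists, genes overlapping a member, and the 2 nearest profiles of each member; a gene outside this rule whose value is given was chosen after its values were seen, apart from markers. The 3 marker lists cover the line's present and absent markers and other cell types; PECAM1 was not analysed here. Promoters came from RefSeq (GRCh38.p14), and LIMD1 had none there. Alternatives were a pseudocount of 0.1, other filters, scalings and variance models, limma voom on recovered fragments, the replicate number as a block, and leaving out each library.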

Additional observations from a re-analysis of the deposited data

How the results depend on the processing

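None of the 5 members tested changed direction under the 13 alternatives (12 for WTIP, which could not be fitted at a mean of at least 5 FPKM). AMOT had a value only with no filter. With no filter on low levels, 24878 genes were tested, 1844 were called lower and 1 member, AMOTL2, kept its call. The log2 fold changes of AMOTL1 (-0.22, adjusted p 0.0692), AJUBA (-0.37, adjusted p 0.0787) and WTIP (-0.34, adjusted p 0.102) no longer passed in limma. With a per-gene test that shares no variance, 9 genes were called higher and 4 lower, and 0 members (4947 genes and 3 members at an unadjusted p under 0.05); limma with shared variance called 4. There AMOTL1 (-0.22), AMOTL2 (-0.70), AJUBA (-0.37) and WTIP (-0.34) had adjusted p of 0.139, 0.0699, 0.173 and 0.115, each per gene with Benjamini-Hochberg. Limma voom on recovered fragments called 1 member higher, LIMD1 (0.15). The cause of these changes was not tested.

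Without 1 library at a time, the lone library of a group was assumed to vary like the other group. AJUBA then ranged from -0.48 to -0.26, AMOTL1 from -0.28 to -0.16 and WTIP from -0.40 to -0.28 in log2 fold change. Of all 12080 genes 2129 to 2549 were called lower, and of the members 2 to 4, 2 of them (AMOTL2 and AJUBA) without MGH-CP1 replicate 1. With the replicate number as a block (replicate block) 3466 genes were called higher and 3052 lower, and 4 members lower, among which AMOTL2 was at -0.70. The labels share only a number between groups: deviations of same-numbered libraries correlated at 0.0777 across 12080 genes.

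Depth limits AMOT most, with 8 fragments in all, and WTIP next.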

Other observations

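Further partners of the members differed between the groups, some of them unlike their close relatives. The genes in this paragraph were chosen after their values were seen. TJP1, the tight junction scaffold ZO-1, was lower after MGH-CP1, with a mean level of 17.2 against 23.2 FPKM (limma adjusted p 0.00103). The transcription factors SNAI1 and SNAI2, which Ajuba proteins assist as corepressors, were called in opposite directions. SNAI1 rose from a mean of 1.40 to 2.20 FPKM (limma adjusted p 0.0197), and SNAI2 fell from 17.8 to 12.8 FPKM (limma adjusted p 9.14e-04). Of the oxygen-sensing hydroxylases that LIMD1 binds, EGLN3 rose from 6.98 to 10.2 FPKM (limma adjusted p 0.00862), as EGLN2 did, and EGLN1 was not called (19.1 and 20.8 FPKM, limma adjusted p 0.128). AGO2, the microRNA effector that LIMD1 binds, fell from 21.0 to 15.5 FPKM (limma adjusted p 9.34e-04). ZYX and LPP, LIM proteins related to the Ajuba family, fell by 0.33 and 0.25 on the log2 scale (limma adjusted p 0.00108 and 0.0197), whereas their relative TRIP6 was not called (0.02, limma adjusted p 0.839).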
